A study of Homo sapiens with 6 samples.

Results

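The alcohol dehydrogenases (ADH) and aldehyde dehydrogenases (ALDH) of the liver were described in Huh7 P and Huh7 LR cells by 10 genes, which were ADH1A, ADH1B, ADH1C, ADH4, ADH5, ADH6, ALDH1A1, ALDH2, ALDH1B1 and ALDH3A1. The genes were chosen by symbol, with earlier results of this same comparison known, and all 10 were found among the 19974 annotated genes of the table. Their difference between the lines is therefore given as a description with no p-value printed, and whether a gene met a threshold of the fit over all genes is stated as part of that description and supports nothing further. Huh7 is a human hepatocellular carcinoma cell line. Huh7 P is the parental line (genotype WT, no treatment, time 0). Huh7 LR (genotype WT) was derived from it by lenvatinib, a multikinase inhibitor, raised from 1 to 20 μM over 10 months, and it is 1 derived line. Each line gave 3 samples of poly(A) RNA, taken per the methods as independent samples from plates short of confluence, and the derived line was kept in medium with 20 μM lenvatinib. Whether the plates taken for RNA also held the drug was not stated separately. P-values measure the spread between these samples of 2 lines and not between lines derived separately.

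Alcohol dehydrogenases are zinc enzymes of the cytosol that oxidise alcohols to aldehydes with NAD+, and aldehyde dehydrogenases oxidise the aldehydes to acids. In the liver, class I ADH (ADH1A, ADH1B and ADH1C) and ADH4 turn ethanol into acetaldehyde, mitochondrial ALDH2 turns acetaldehyde into acetate, and ADH5 clears formaldehyde bound to glutathione. The same families also act on retinol and retinaldehyde, for which ALDH1A1 is a cytosolic enzyme. Class I ADH and ADH4 are typical of differentiated hepatocytes, whereas ADH5 is made in nearly every tissue.

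The 6 libraries held 62738937 to 71427573 counts, so that 3 counts equalled 0.0418 to 0.0486 CPM (counts scaled to a common library size, with TMM factors between libraries). A call needed a change past 2-fold with an adjusted p below 0.001, and by it 776 (4.43%) of 17531 tested genes and loci were higher in Huh7 LR and 312 (1.78%) were lower. At an adjusted p under 0.05 alone, 23.3% were higher and 22.4% lower, and the median log2 fold change was 0.00. All 3 Huh7 LR libraries lay above all 3 Huh7 P libraries in 28.2% of the tested genes and loci, and below them in 27.7%. Shares of all genes and loci given further on are shares of the 17531 tested. All 8 hepatocyte markers were expressed in every library, with a summed CPM of 43320 to 52473 in Huh7 P and 55702 to 58785 in Huh7 LR. By the threshold of 0.05, 5 of these 8 were higher and 0 lower, and FGB, a fibrinogen chain, was called, at a log2 fold change of 2.49 ± 0.12 (SE). ALB, TTR and APOA1 stood at 0.74, 0.68 and 0.48, while AFP, at -0.23, did not meet the threshold. The summed CPM of 7 fibroblast markers was 2.16 to 2.28 in Huh7 P and 5.02 to 8.02 in Huh7 LR, mostly from COL1A1, which was called higher (log2 fold change 1.84 ± 0.23, SE), with DCN and THY1 at 0 in every library. PDGFRB was also higher, at 0.84. The sum of 6 leukocyte markers was 62.4 to 67.7 in Huh7 P and 10.1 to 14.0 in Huh7 LR. It came mostly from LYZ, which was called lower (log2 fold change -2.79 ± 0.11, SE), with HLA-DRA and TYROBP at 0. The other tested leukocyte markers, CD14 and CD74, went the other way, at 0.53 and 0.52, and did not meet the threshold. The sum of 5 endothelial markers was 38.8 to 47.5 in Huh7 P and 65.0 to 71.2 in Huh7 LR, nearly all from PECAM1, which was higher at 0.64, as was VWF at 2.95, which passed the filter on low counts only through Huh7 LR, with CDH5, KDR and TEK at 0. The part of these marker genes in the results was not tested. In bulk RNA, fewer cells that express a gene and less RNA per cell cannot be told apart.

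ADH1A and ADH1B RNA was counted in Huh7 LR alone, ADH1C and ADH4 rose from low levels, the abundant ADH5 and ALDH2 stayed within 0.14 on the log2 scale of counts, and the very abundant ALDH1A1 fell. Of the 9 genes that passed the filter on low counts, 2 were called higher (ADH1A and ADH4) and 0 lower, beside 4.43% and 1.78% of all genes and loci. ADH1A and ADH1C passed the filter only through their counts in Huh7 LR, and ADH1B did not pass it. At an adjusted p under 0.05, 3 of the 9 were higher and 2 lower, beside 23.3% and 22.4% of all genes and loci. The median log2 fold change of the 9 was 0.03, and it was 0.08 over all 10 when ADH1A and ADH1B, neither of which was counted in Huh7 P, were set at their lower bounds. In 5 of the 10 genes all Huh7 LR libraries lay above all Huh7 P libraries, in 3 they lay below, and in 2 (ADH6 and ALDH2) the lines overlapped, beside 28.2% of the tested genes and loci above and 27.7% below. ADH1B, 1 of the 5, is not among the tested genes behind these shares.

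**Figure D1:**
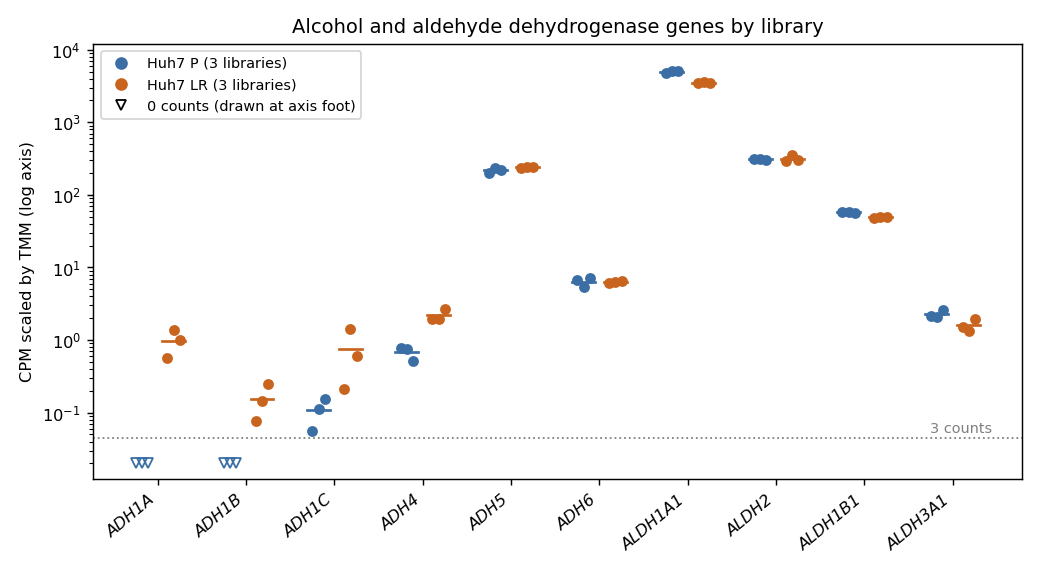
Level of each of the 10 genes in each library in CPM scaled by TMM, on a log axis, with a bar at the mean of each line. ADH1A and ADH1B are at 0 counts in every Huh7 P library, ADH4 lies higher in Huh7 LR and ALDH1A1 lower, and CPM is not scaled for gene length, so heights are compared within a gene only.

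The 6 ADH genes lie side by side on the minus strand of chromosome 4, and the sequence before their starts is shown because the 3 class I genes are close copies of each other, ADH4, which also rose, is not a close copy of them, and ADH5 did not meet the threshold. RefSeq (GRCh38.p14) gave the 250 bases before the start of 8 of the 10 genes, and ALDH2 and ALDH3A1 were not matched. The starts used by RefSeq are not the outermost ones of the GENCODE gene spans given for the genes, and the windows of ADH4, ADH6, ADH1B, ADH1C and ALDH1A1 lie inside those spans. Capitals mark a TATA box (TATAAA), a GC box (GGGCGG), a C/EBP core (TTGCNNAA) or an E box (CACGTG), searched on both strands, and no 2 marked motifs overlap.
ADH1A, chr4:99290986-99291235, minus strand: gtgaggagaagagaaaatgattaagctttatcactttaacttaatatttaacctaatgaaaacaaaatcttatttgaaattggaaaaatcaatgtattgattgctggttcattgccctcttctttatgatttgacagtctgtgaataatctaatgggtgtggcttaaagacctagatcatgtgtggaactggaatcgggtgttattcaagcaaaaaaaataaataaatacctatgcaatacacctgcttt
ADH1B, chr4:99321402-99321651, minus strand: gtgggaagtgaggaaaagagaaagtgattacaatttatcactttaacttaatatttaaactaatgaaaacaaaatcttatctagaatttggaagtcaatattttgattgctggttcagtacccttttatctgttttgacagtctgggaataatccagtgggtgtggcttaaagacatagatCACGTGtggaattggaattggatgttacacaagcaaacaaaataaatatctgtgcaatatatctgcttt
ADH1C, chr4:99352747-99352996, minus strand: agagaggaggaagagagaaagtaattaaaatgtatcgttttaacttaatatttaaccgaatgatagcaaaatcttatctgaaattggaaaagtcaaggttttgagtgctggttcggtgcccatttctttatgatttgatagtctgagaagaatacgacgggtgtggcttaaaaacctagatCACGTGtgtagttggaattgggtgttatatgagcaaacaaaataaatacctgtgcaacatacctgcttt
ADH4, chr4:99144298-99144547, minus strand: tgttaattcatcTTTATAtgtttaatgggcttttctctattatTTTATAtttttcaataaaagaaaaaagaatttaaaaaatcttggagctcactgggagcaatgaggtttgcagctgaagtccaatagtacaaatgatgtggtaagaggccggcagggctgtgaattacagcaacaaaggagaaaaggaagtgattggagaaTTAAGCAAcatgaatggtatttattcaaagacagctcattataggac
ADH5, chr4:99088789-99089038, minus strand: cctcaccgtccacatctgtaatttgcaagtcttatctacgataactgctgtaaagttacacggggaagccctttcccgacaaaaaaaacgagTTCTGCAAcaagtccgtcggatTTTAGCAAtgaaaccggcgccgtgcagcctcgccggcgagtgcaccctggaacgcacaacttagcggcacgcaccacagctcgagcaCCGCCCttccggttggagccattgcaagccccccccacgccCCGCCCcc

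The class I windows were 80.3% to 81.4% identical to each other, and 37.7% to 50.4% identical to those of ADH4, ADH5 and ADH6. Their GC content was 31.6% in ADH1A, 32.4% in ADH1B and 35.6% in ADH1C. It was 34.0% in ADH4 and 36.4% in ADH6, against 58.0% in ADH5 and a median of 58.0% over 35116 promoters. ADH6, whose window is not printed, did not meet the threshold either, so that low GC content did not go with a rise in each gene. ADH5 held 21 CpG dinucleotides, against 1 each in ADH1A, ADH1B, ADH4 and ADH6 and 6 in ADH1C (median of all promoters, 11). Among the aldehyde dehydrogenases, the window of ALDH1B1 had 70.4% GC and that of ALDH1A1 38.4%. An E box stood at position -69 from the start in both ADH1B and ADH1C, and the ADH1A window held none of the 4 marked motifs. E boxes were found in 6.34% of all promoters. ADH4 held the TATA letters at -238 and -207, on the opposite strand, and a C/EBP core at -47. ADH5 held GC boxes at -49 and -8 and C/EBP cores at -158 and -136. The TATA letters occurred in 10.7% of all promoters, the GC box in 42.6% and the C/EBP core in 9.05%. A match is a run of letters, and binding was not measured.

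ADH1A, the class I subunit best known from fetal liver, was not counted in Huh7 P and was counted in every Huh7 LR library. Counts were 0, 0 and 0 across the Huh7 P libraries and 37, 95 and 69 across those of Huh7 LR. The lines did not overlap, and the lowest Huh7 LR library was the first. In Huh7 LR the mean was 0.978 ± 0.395 CPM (SD, n = 3), at least 21.5-fold higher, taking 3 counts in each Huh7 P library as the limit. The lowest Huh7 LR library stood at 0.568 CPM. ADH1A (chr4:99276367-99291028, GRCh38) shares 11.7% of its exon bases with the antisense RNA AP002026.1, which was not analysed here. The library kit does not mark strand, so reads of the pair cannot be told apart.

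ADH1B encodes the subunit that dominates ethanol oxidation in adult liver, and it remained near the limit of detection. The Huh7 P libraries held 0, 0 and 0 counts and those of Huh7 LR held 5, 10 and 17. All Huh7 LR libraries were above all Huh7 P libraries, but the gene had too few counts for the test. Its mean in Huh7 LR was 0.156 ± 0.0870 CPM (SD, n = 3), which is 3.44 times the limit of 3 counts in each Huh7 P library. The lowest Huh7 LR library stood at 0.0767 CPM.

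ADH1C, the third class I subunit, was counted in both lines. Its counts ran 4, 7 and 10 over the Huh7 P libraries and 14, 99 and 41 over the Huh7 LR libraries. The second Huh7 LR library held most of the reads, and the lowest Huh7 LR library was only 4 counts above the highest Huh7 P library. The mean rose from 0.107 ± 0.0489 to 0.743 ± 0.612 CPM (SD, n = 3), and the log2 fold change was 2.79 ± 0.67 (SE), which met the adjusted p of 0.05 and not that of a call. Without the second Huh7 LR library the log2 fold change was 1.93.

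The 3 class I genes share reads in principle, since their coding sequences were 93.9% to 95.6% identical, against 66.8% to 69.2% for class I genes with ADH4, ADH5 or ADH6. Of all stretches of 50 bases in their transcripts, 10.7% in ADH1A, 4.46% in ADH1B and 18.1% in ADH1C also occurred in another gene of the family, and none did in the other 7 genes. For stretches of 100 bases the shares were 0.222%, 1.01% and 5.35%. ADH1B and ADH1C also share 103 exon bases on the same strand. How the counting split such reads was not stated, and the values of single class I genes are uncertain to that extent. Summed over the 3 genes, Huh7 LR held 56, 204 and 127 counts and Huh7 P held 4, 7 and 10. The sum was 0.107 ± 0.0489 CPM in Huh7 P and 1.88 ± 1.03 CPM in Huh7 LR (SD, n = 3). Its log2 fold change was 4.12 ± 0.51 (SE), and it passed the filter on low counts only through Huh7 LR. All 3 Huh7 LR libraries were above all Huh7 P libraries for the sum, and ADH1A made up 201 of the 387 class I counts in Huh7 LR.

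ADH4, the class II enzyme, which oxidises ethanol at high concentrations and also retinol, was the best measured of the rising genes. The Huh7 P libraries held 56, 47 and 34 counts and those of Huh7 LR held 126, 135 and 183. All Huh7 LR libraries were above all Huh7 P libraries. The mean rose from 0.687 ± 0.145 to 2.18 ± 0.434 CPM (SD, n = 3), by 1.66 ± 0.24 (SE) on the log2 scale, and ADH4 was called higher. The change stayed between 1.49 and 1.76 when any 1 library was left out. The call was lost without any 1 of the Huh7 P libraries or without the third Huh7 LR library, since the adjusted p then passed 0.001. ADH4 (chr4:99123657-99157792, GRCh38) shares no stretch of 50 bases with the rest of the family.

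ADH5, the class III enzyme that oxidises the glutathione adduct of formaldehyde and reduces S-nitrosoglutathione, was the main ADH transcript of both lines. Its counts ran 14299, 14363 and 14395 over the Huh7 P libraries and 15475, 16838 and 16411 over the Huh7 LR libraries. In CPM it was 217 ± 16.9 in Huh7 P and 239 ± 1.75 in Huh7 LR (SD, n = 3). All Huh7 LR libraries were above all Huh7 P libraries, by a log2 fold change of 0.14 ± 0.07 (SE), which did not meet the adjusted p of 0.05. On FPKM, which is scaled for length, ADH5 made up 96.9% of the summed level of the 6 ADH genes in Huh7 P and 95.4% in Huh7 LR. The sum of the 6 was 79.6 ± 5.60 FPKM in Huh7 P and 91.1 ± 0.567 in Huh7 LR. Without ADH5 it was 2.46 ± 0.312 and 4.22 ± 0.615 FPKM (SD, n = 3), with all Huh7 LR libraries above all Huh7 P libraries.

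ADH6, the class V gene, whose substrate in vivo is not well known, did not separate the lines. Counts were 484, 329 and 462 across the Huh7 P libraries and 403, 438 and 444 across those of Huh7 LR. The Huh7 LR libraries fell within the range of the Huh7 P libraries, which spread more widely. The level was 6.38 ± 0.922 CPM in Huh7 P and 6.31 ± 0.171 in Huh7 LR (SD, n = 3), a log2 fold change of -0.02 ± 0.13 (SE), whose sign changed without the first or the third Huh7 P library.

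The gene order along chromosome 4 was set beside the changes (chr4:99070978-99435737, GRCh38, 364760 bases, 7 ADH genes on the minus strand). From the end of ADH5, the order is ADH5, ADH4, ADH6, ADH1A, ADH1B, ADH1C and ADH7. ADH4, at 1.66 on the log2 scale, lies between ADH5, at 0.14, and ADH6, at -0.02, neither of which met the adjusted p of 0.05. ADH7, the class IV enzyme of the upper digestive tract, had 0 counts in every library, which allows up to 0.0486 CPM in the shallowest library by the limit of 3 counts. Within 1000000 bases on either side the table holds 14 further genes, of which 9 were tested. By edgeR's quasi-likelihood test with adjustment over all genes, 1 of the 9 rose and 6 fell at an adjusted p under 0.05, beside 23.3% and 22.4% of all genes and loci, and their median log2 fold change was -0.29, against 0.00 for all genes and loci. The gene that rose was TSPAN5, a tetraspanin, which was also called higher, with a log2 fold change of 1.03 ± 0.11 (SE, adjusted p = 3.89e-05). The members of the ADH run and these neighbours were not tested against each other.

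**Figure D2:**
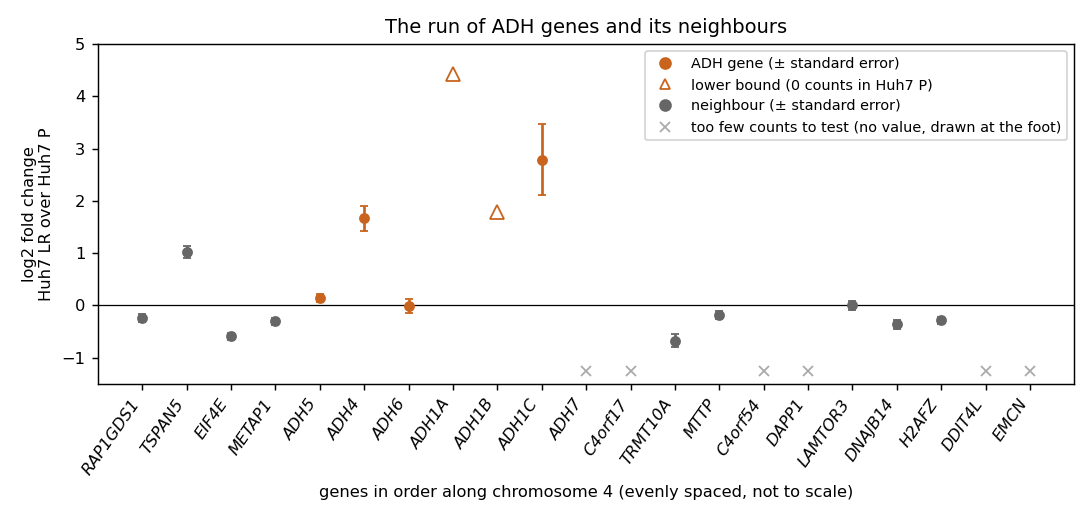
The log2 fold change of Huh7 LR over Huh7 P, with its standard error, for the ADH genes and the genes within 1000000 bases of them, in their order along chromosome 4. Triangles are lower bounds for ADH1A and ADH1B, crosses are genes with too few counts for a value, and ADH4, ADH1A, ADH1B and ADH1C stand above zero while ADH5 and ADH6 lie near it.

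ALDH1A1, the cytosolic retinaldehyde dehydrogenase that also oxidises acetaldehyde and is often used as a marker of liver progenitor-like tumour cells, fell from a very high level. The Huh7 P libraries held 341929, 309369 and 330778 counts and those of Huh7 LR held 228440, 250456 and 239456. The highest Huh7 LR library was below the lowest Huh7 P library. The mean was 4946 ± 158 CPM in Huh7 P and 3530 ± 39.2 CPM in Huh7 LR (SD, n = 3), 1.40-fold lower. The log2 fold change was -0.49 ± 0.07 (SE), which met the adjusted p of 0.05 but not the 2-fold change of a call, and it ranged from -0.51 to -0.47 when any 1 library was left out. ALDH1A1 took 0.489% of all counts of the Huh7 P libraries and 0.357% of those of Huh7 LR. By FPKM it ranked 15 among the annotated genes in every Huh7 P library and 21 to 24 in the Huh7 LR libraries. It made up 97.6% of the summed FPKM of the 4 ALDH genes in Huh7 P and 96.0% in Huh7 LR, and that sum was 2211 ± 45.6 and 1633 ± 18.6 FPKM (SD, n = 3). In each library, ALDH1A1 was 26.3 to 29.5 times ADH5 by FPKM in Huh7 P and 17.9 to 18.4 times in Huh7 LR.

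ALDH2, the mitochondrial enzyme that removes acetaldehyde, had different values on the count and FPKM scales of the table. Its counts ran 22529, 19180 and 20013 over the Huh7 P libraries and 18978, 24516 and 20939 over the Huh7 LR libraries. The lines overlapped, at 310 ± 3.96 CPM in Huh7 P and 316 ± 30.4 in Huh7 LR (SD, n = 3), a log2 fold change of 0.03 ± 0.08 (SE). Its FPKM was 36.3, 33.8 and 35.4 over the Huh7 P libraries and 32.1, 62.3 and 51.7 over the Huh7 LR libraries, so that the first Huh7 LR library lay below Huh7 P and the other two above it. The counts behind 1 FPKM, relative to the mean of Huh7 P, were 0.971 to 1.04 in Huh7 P, 1.06 in the first Huh7 LR library and 0.644 and 0.685 in the other two. The mean of this ratio over Huh7 LR moved by -0.33 on the log2 scale, a larger shift than in 99.5% of the 11363 annotated genes whose counts reached 100 in each library. In ALDH1A1, ALDH1B1 and ADH5 the ratio stayed between 0.989 and 1.01 in every library. AC002996.1, a protein-coding entry that shares 680 exon bases with ALDH2 on the same strand, was not counted in Huh7 P and had 0, 36 and 19 counts over the Huh7 LR libraries. The part of this entry in the shift was not tested. Levels of ALDH2 relative to other genes in Huh7 LR therefore differ by library on FPKM, with ALDH1A1 at 57.9 to 64.6 times ALDH2 in Huh7 P and at 49.0, 25.3 and 30.1 times in Huh7 LR.

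**Figure D3:**
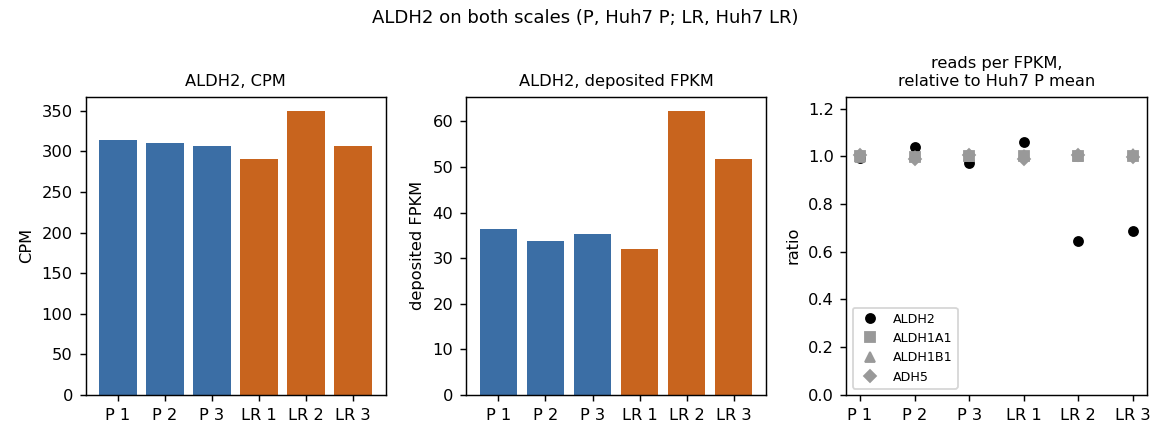
ALDH2 in each library as CPM (left), as deposited FPKM (middle) and as counts per FPKM relative to the mean of Huh7 P beside ALDH1A1, ALDH1B1 and ADH5 (right). The CPM of the lines overlap, whereas FPKM is 62.3 and 51.7 in the second and the third Huh7 LR libraries, where the ratio is 0.644 and 0.685.

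ALDH1B1, another mitochondrial enzyme that accepts acetaldehyde, fell slightly. Counts were 4209, 3559 and 3650 across the Huh7 P libraries and 3142, 3522 and 3422 across those of Huh7 LR. The lines did not overlap, and the means were 57.4 ± 1.44 CPM for Huh7 P and 49.5 ± 1.16 CPM for Huh7 LR (SD, n = 3). The log2 fold change of -0.21 ± 0.07 (SE) met the adjusted p of 0.05 with all libraries, and no longer did without the first or second Huh7 P library or without the third Huh7 LR library, where it was -0.20, -0.20 and -0.22.

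ALDH3A1 oxidises aromatic and lipid aldehydes, is abundant in the cornea and is a known target of the aryl hydrocarbon receptor. The Huh7 P libraries held 153, 128 and 171 counts and those of Huh7 LR held 100, 93 and 132. The counts of the lines overlapped, but in CPM the third Huh7 LR library, at 1.93, was just below the lowest Huh7 P library, at 2.07. The means were 2.27 ± 0.297 and 1.60 ± 0.309 CPM (SD, n = 3), and the log2 fold change, -0.51 ± 0.20 (SE), did not meet the adjusted p of 0.05. It did meet it without the third Huh7 LR library, at -0.67, and with the replicate number as a block, at -0.52. It shares 2.50% of its exon bases with an antisense RNA.

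By length-scaled level, the order in Huh7 P was ALDH1A1 (2157 ± 47.1 FPKM), ADH5 (77.1 ± 5.87), ALDH2 (35.2 ± 1.30), ALDH1B1 (17.3 ± 0.647), ADH6 (2.10 ± 0.363), ALDH3A1 (1.10 ± 0.140), ADH4 (0.302 ± 0.0750) and ADH1C (0.0528 ± 0.0273), with ADH1A and ADH1B listed at 0 (SD, n = 3). Each neighbouring pair above 0 was separated in every library. In Huh7 LR the first 5 genes kept this order, with ALDH1A1 at 1568 ± 9.68 FPKM, ADH5 at 86.9 ± 1.03, ALDH2 at 48.7 ± 15.3, ALDH1B1 at 15.2 ± 0.239 and ADH6 at 2.16 ± 0.0186. ADH4 (1.00 ± 0.200), ALDH3A1 (0.803 ± 0.122), ADH1A (0.605 ± 0.243) and ADH1C (0.420 ± 0.364) followed, and within these 4 each overlapped the next. ADH1B was last in Huh7 LR, below ADH1C in every library, at 0.0399 ± 0.0219 FPKM.

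The profile of ADH4 over the 6 libraries was compared with those of all other annotated genes by the distance between log2(CPM + 1) values centred on each gene's mean. The nearest were IRX3 (distance 0.125), a homeobox factor, CCER2 (0.129), ACSL6 (0.137), an acyl-CoA synthetase, TMEM45A (0.168) and MYO5A (0.176), a myosin. ADH4 itself stood at 0.687 CPM in Huh7 P and 2.18 in Huh7 LR, IRX3 at 2.39 and 5.61, and ACSL6 at 0.366 and 1.57. In the order named, the log2 fold changes of the 5 were 1.23, 1.72, 2.09, 1.22 and 1.01, against 1.66 for ADH4. The added 1 CPM shrinks changes at low levels, so that the distance does not compare fold changes. A pattern over 6 libraries in 2 lines is shared by any gene whose log2(CPM + 1) rose by a like amount.

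The rest of both families and related enzymes gave the setting of the 10 genes, and p-values are those of the edgeR quasi-likelihood fit, adjusted by Benjamini-Hochberg over all 17531 genes and loci. Of 5 genes listed as further alcohol dehydrogenases, aldehyde reductases and the esterase ESD, 4 were tested, of which 1 rose and 1, the esterase, fell at an adjusted p under 0.05 (median log2 fold change -0.04). ADHFE1, an iron-dependent enzyme of hydroxy acids, rose by 1.22 ± 0.13 (SE) on the log2 scale (adjusted p = 2.58e-05) and was called. ESD, which hydrolyses the product of ADH5 to formate, fell by 0.28 on the log2 scale (adjusted p = 0.00831). Of 15 further aldehyde dehydrogenases 12 were tested, of which 2 rose and 3 fell (median -0.06). ALDH1A2, another retinaldehyde dehydrogenase, held 23, 35 and 20 counts over the Huh7 P libraries and 310, 379 and 354 over the Huh7 LR libraries. It rose from 0.398 ± 0.147 to 5.12 ± 0.333 CPM (SD, n = 3), by 3.69 ± 0.24 on the log2 scale (SE, adjusted p = 1.07e-06). By FPKM, ALDH1A2 reached 1.83 ± 0.299 in Huh7 LR, where ALDH1A1 stood at 1568 ± 9.68 (SD, n = 3). ALDH1L2, a mitochondrial enzyme of folate metabolism, was called lower, from 260, 194 and 214 counts over the Huh7 P libraries to 51, 54 and 48 over those of Huh7 LR (log2 fold change -2.15 ± 0.18, SE, adjusted p = 5.56e-06). ALDH5A1, which oxidises succinic semialdehyde, rose by 0.75 ± 0.10 and ALDH16A1 fell by 0.69 on the log2 scale, neither past 2-fold.

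**Figure D4:**
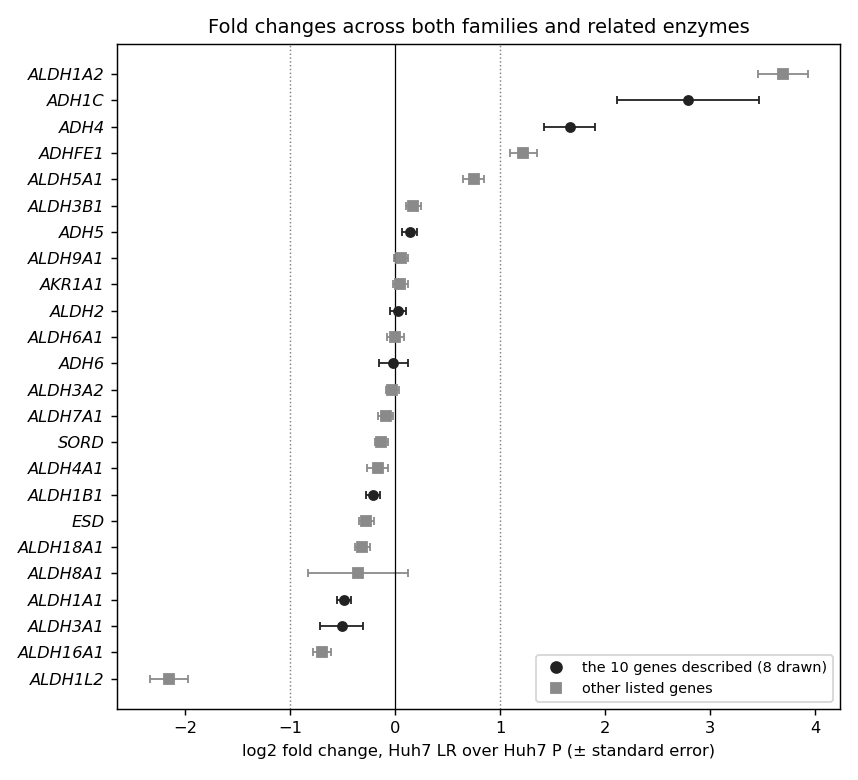
The log2 fold change of Huh7 LR over Huh7 P with its standard error, for the tested genes of both families and related enzymes, where circles are the genes described, squares are other listed genes, the esterase ESD included, and dotted lines mark 2-fold. ALDH1A2, ADH1C, ADH4 and ADHFE1 lie beyond 2-fold higher and ALDH1L2 beyond 2-fold lower, and ADH1A is left out because it had 0 counts in Huh7 P.

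Acetaldehyde is made into acetate and then acetyl-CoA, and ethanol is also oxidised by CYP2E1 and catalase. Of 6 genes of these steps 5 were tested, of which 3 rose and 0 fell at an adjusted p under 0.05 (median log2 fold change 0.90). ACSS3, a mitochondrial acyl-CoA synthetase, rose by 1.44 ± 0.12 (SE) on the log2 scale (adjusted p = 5.52e-06) and was called. ACSS2, which makes acetyl-CoA from acetate in the cytosol, rose by 0.90 ± 0.11 (adjusted p = 7.44e-05). ACOT12, which releases acetate from acetyl-CoA, held 2, 0 and 0 counts over the Huh7 P libraries. Over those of Huh7 LR it held 37, 53 and 68, and it met the thresholds of a call. It passed the filter on low counts only through Huh7 LR, so that its call supports nothing further. ACOT12 is nevertheless counted among the 3 that rose and in the median. CYP2E1 did not separate the lines, with 263, 229 and 303 counts over the Huh7 P libraries and 303, 256 and 250 over those of Huh7 LR.

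Of 28 genes of retinoid metabolism 22 were tested, of which 10 rose and 2 fell at an adjusted p under 0.05 (median log2 fold change 0.31). CYP26B1, which degrades retinoic acid, was the gene called, and it fell from 23.0 ± 1.57 to 3.95 ± 0.331 CPM (SD, n = 3), and its log2 fold change was -2.54 ± 0.11 (SE, adjusted p = 7.27e-08). The retinol dehydrogenases RDH5 and RDH14 rose by 0.88 ± 0.18 and 0.82 ± 0.12 (SE) on the log2 scale (adjusted p = 0.00202 and 0.000332). BCO2, which cleaves carotenoids, rose by 1.28 ± 0.40 (adjusted p = 0.0221), and its adjusted p was 0.0602 to 0.0850 without the first Huh7 P library, the third Huh7 P library or the third Huh7 LR library.

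**Figure D5:**
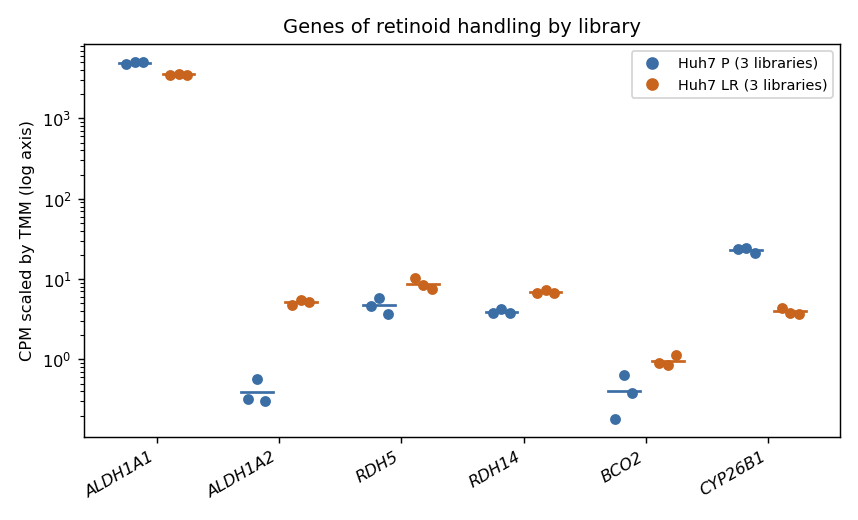
CPM scaled by TMM in each library, on a log axis, for ALDH1A1, ALDH1A2 and the 4 named genes of retinoid metabolism, with a bar at the mean of each line. ALDH1A1 and CYP26B1 are lower and ALDH1A2, RDH5, RDH14 and BCO2 higher in the Huh7 LR libraries.

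Of 7 genes of fatty acid omega oxidation, whose alcohols and aldehydes the families also accept, 3 were tested and all 3 rose at an adjusted p under 0.05 (median log2 fold change 0.96). CYP4F3 was called, at 1.16 ± 0.08 (SE, adjusted p = 1.21e-06), and CYP4V2 and CYP4F12 rose by 0.96 ± 0.18 and 0.56 ± 0.06. The 15 transcription factors of hepatocytes listed were all tested, and 8 rose and 2 fell (median 0.25). DBP, a circadian factor, was called higher at 1.14 ± 0.12 (SE, adjusted p = 2.64e-05). CEBPD and CEBPA, whose family is known to act on class I ADH promoters, rose by 0.98 ± 0.11 (adjusted p = 3.20e-05) and 0.58 ± 0.07 (adjusted p = 5.55e-05), and ONECUT1 rose by 0.41 ± 0.10 (adjusted p = 0.00779). All 8 genes of the aryl hydrocarbon receptor battery other than ALDH3A1 were tested, and 5 rose and 1 fell (median 0.41). CYP1A1 was called higher, from 24.0 ± 0.751 to 136 ± 36.4 CPM (SD, n = 3), at 2.50 ± 0.16 (SE, adjusted p = 1.13e-06), and ARNT rose by 0.61 ± 0.07 (adjusted p = 2.94e-05). NQO1 fell by 0.74 on the log2 scale (adjusted p = 1.50e-05), while ALDH3A1 stood at -0.51 ± 0.20 as given above. CYP1A2 held 5, 8 and 0 counts over the Huh7 P libraries and 24, 21 and 14 over those of Huh7 LR. Its log2 fold change was 2.11 ± 0.74 (SE), and it is counted among the 5 that rose and in the median. It passed the filter through Huh7 LR only, so that meeting the threshold supports nothing further for it. The log2 fold change was 2.96 without the second Huh7 P library and 1.54 without the third Huh7 P library. CYP1A2 no longer met the adjusted p of 0.05 with no filter on low counts. Nor did it without any 1 of the 5 libraries other than the second Huh7 P library. Each of these lists was read beside 23.3% of all genes and loci higher and 22.4% lower, and no list was tested against the rest.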

How the data were processed

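The authors sequenced poly(A) RNA of 3 Huh7 P and 3 Huh7 LR samples and deposited 1 table with read counts and FPKM per gene and library. The deposited counts are unscaled whole numbers. The authors' FPKM values divide reads by library size and by an estimate of transcript length. The submitters' processing notes name TopHat2, Cufflinks, DESeq and mm10, a mouse build, and the labels describe insect larvae, whereas the table holds human gene identifiers. The strand setting of the counting and the annotation release are not given in the sources used here. Rows that held annotation text and no gene (34) were dropped.

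Counts were tested in R 4.3.3 with edgeR 4.0.16 (filterByExpr with minimum count 10 and total 15, TMM, quasi-likelihood test, Benjamini-Hochberg adjustment over 17531 genes and loci, biological coefficient of variation 12.7%), and the procedure was tested on simulated data. DESeq2 1.42.0, limma 3.58.1 on log2(FPKM + 0.1) and log2(FPKM + 1), other filters, summed class I genes, a replicate block and leaving out each library were alternatives. Levels are given as CPM with TMM scaling. Each SE is the absolute log2 fold change divided by the square root of the test's F statistic, an approximation that is rough at low counts. A fold against a line at 0 is a lower bound from 3 counts per library, and intervals were not drawn from single counts. Coordinates, exon overlaps and coding identity came from GENCODE on GRCh38 and promoters from RefSeq. The 10 genes and all lists were chosen with earlier results of these data known. Named beside the 10 genes were, in each other list, the genes called and up to 4 with the largest change at an adjusted p under 0.05, and, of the neighbours, those called. Cell type markers, ADH7 and CYP2E1 were named apart from this rule. For the tested gene with the largest change and a mean of at least 1 CPM in a line, the 5 nearest profiles were also named.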

Additional observations from a re-analysis of the deposited data

How the results depend on the processing

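The genes and loci called numbered 589 higher and 212 lower in limma on log2(FPKM + 0.1), and 268 and 84 on log2(FPKM + 1), where test, unit and filter also differ from the counts, and the cause was not tested. Of the 10 genes, those called higher numbered 1 with at least 10 counts in every library (ADH1A, at 0 in Huh7 P, was filtered out), 1 with log2(FPKM + 0.1), where ADH1A was filtered out, 0 with log2(FPKM + 1), where ADH4 stood at 0.62, and 1 to 3 when 1 library was left out. It was 1, ADH1A alone, without any 1 of the Huh7 P libraries or without the third Huh7 LR library. It was 3, with ADH1C added, without the first Huh7 LR library or with the DESeq2 Wald test, and 2 with DESeq2 size factors in edgeR. The log2 fold change of ADH6 turned positive, at 0.00096 with at least 10 counts in every library, 0.050 with log2(FPKM + 0.1) and 0.032 with log2(FPKM + 1), and ranged from -0.13 to 0.061 when 1 library was left out. That of ALDH2 was 0.42 with log2(FPKM + 0.1) and 0.41 with log2(FPKM + 1), without passing the threshold, and ranged from -0.045 to 0.081 when 1 library was left out, negative without the second Huh7 LR library. Correlations between the deviations of same-numbered libraries were 0.09, 0.11 and 0.04, and each library correlated best with its own number. Whether replicate numbers pair the samples was not tested. With a replicate block the calls were 783 higher and 316 lower, 2 of the 10 genes were called, and ALDH3A1, at -0.52, met the adjusted p of 0.05. Of 120 counts recomputed, 111 stayed within 1.5 times, and of 492 single-gene values 472 kept their direction and side of the threshold. Low counts limit ADH1A, ADH1B and ADH1C.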
